A study of Mus musculus with 480 samples.

Results

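Of the 53379 genes in the count table, 7 complement and acute phase genes are described here: Hc (complement component 5), C3, Cfb, Itih4, Cp, Hp and Cd55. They were chosen by name and matched by Ensembl identifier, and all 7 had at least 1 read. Single lung epithelial cells positive for the tdTomato reporter were sorted into wells from 3 mouse lines, 160 cells from each line and 480 in all, and their polyadenylated transcripts were amplified and sequenced without molecular identifiers. The BASCs-Tracer line carries Sftpc-DreER and Scgba1a1-CreER with the R26-RSR-LSL-tdtomato reporter, which needs both recombinases, Dre driven from the surfactant gene Sftpc and Cre driven from the club cell gene Scgb1a1. Apart from 1 ciliated cell, 6 AT2 cells (alveolar type 2, the surfactant-making cells) and 15 club cells (secretory cells of the airway), its cells were all labelled BASCs (bronchioalveolar stem cells, which make both Sftpc and Scgb1a1). The Scgb1a1-TD line (Scgba1a1-CreER;R26-tdtomato), which needs Cre alone, gave 38 BASCs, 24 ciliated cells, 1 AT2 cell and 97 club cells. The Sftpc-TD line (Sftpc-DreER;R26-RSR-tdtomato), which needs Dre alone, gave 11 BASCs, and the rest were AT2 cells. The labels used here state neither age, recombinase induction and number of mice nor how sub-types were assigned, so these genes may have taken part in the assignment.

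Complement is a cascade of plasma proteins that marks and lyses microbes. C3 is its central component, cleaved by convertases that contain Cfb in the alternative pathway, and C5, encoded in the mouse by Hc, starts the lytic complex after its own cleavage. Cd55 (decay-accelerating factor) is a membrane-anchored regulator that takes convertases apart on the cell's own surface. Hp (haptoglobin) binds free haemoglobin, Cp (ceruloplasmin) is a copper-carrying ferroxidase, and Itih4 is a heavy chain of the inter-alpha-trypsin inhibitor family. Apart from Cd55, these proteins are made mainly in the liver, where inflammation raises several of them through interleukin-6, STAT3 and C/EBP factors. The lung epithelium is a known local source of C3, C5, haptoglobin and ceruloplasmin.

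No source names an animal for any cell, so each line counted as 1 sample, and no test between lines or cell types was possible. Levels are therefore given as reads of a gene per 1000000 reads (CPM) over the summed cells, with 95% exact Poisson intervals that cover counting error only, and as the lowest, median and highest cell. A member was called higher or lower where log2(CPM + 1) differed by 2-fold or more and at least 1 of the groups reached 5 CPM. The spread between the 5 plates of 96 wells was the nearest thing to replicate error. Ratios are therefore given with their range over pairs of plates, each plate holding 5 or more cells of its group. The pairs cross every such plate of the first group with every such plate of the second, so they share plates and are not independent. Fewer cells that make a transcript and less transcript per cell cannot be told apart in the summed values, so shares of cells follow them. The median cell held 778327 reads for BASCs-Tracer, 1.08e+06 for Scgb1a1-TD and 1.11e+06 for Sftpc-TD, and the shallowest of all had 3379.

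In the groups with 6 or more cells, AT2 and club markers set the BASC and AT2 groups apart from club and ciliated cells, but did not set every BASC group apart from every AT2 group. The AT2 marker list summed to between 319985 and 409343 CPM in all 3 BASC groups and both AT2 groups, against 3106 CPM in ciliated cells, 50871 CPM in BASCs-Tracer club cells and 31474 CPM in Scgb1a1-TD club cells. The club list summed to 14958, 4420 and 8778 CPM in BASCs of the lines BASCs-Tracer, Scgb1a1-TD and Sftpc-TD, to 1463 CPM in Sftpc-TD AT2 cells, 4598 CPM in BASCs-Tracer AT2 cells and 319373 CPM in Scgb1a1-TD club cells. Scgb1a1 itself, at 3518 CPM in Scgb1a1-TD BASCs and 3766 CPM in BASCs-Tracer AT2 cells, did not separate those groups. The cell labelled ciliated in BASCs-Tracer had no Foxj1 read and 72979 CPM of Scgb1a1, which goes against its label, and it entered no comparison. Pan-leukocyte markers reached 50 CPM in 7 BASCs-Tracer BASCs, 1 of 11 Sftpc-TD BASCs, 1 AT2 cell of Sftpc-TD, 1 club cell of BASCs-Tracer and 6 Scgb1a1-TD club cells. The lines also differed in sex-linked transcripts: Eif2s3y summed to 84.8 CPM over all BASCs-Tracer cells, 74.8 CPM over Scgb1a1-TD cells and 0.029 CPM over Sftpc-TD cells, and Xist to 6.59, 4.05 and 211.1 CPM. Line, animal and sex therefore cannot be told apart in comparisons of Sftpc-TD with another line, and BASCs-Tracer and Sftpc-TD shared no plate.

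Promoter sequence, 250 bases before to 50 after the transcript start (RefSeq, GRCm38.p6), was matched for 5 members: Hc, C3, Itih4, Cp with 2 starts, and Cd55. Cfb and Hp were not matched. Each was searched on both strands for TTNNGNAA (a loose C/EBP pattern), TTCNNNGAA (STAT) and GGANTTTCC (NF-kappaB). They were chosen because these factor families carry the acute phase response in liver. The sequences below contrast C3, which held 3 C/EBP matches within 70 bases of its start, Itih4, whose 1 match was to STAT, Cp from its second start, and Hc, whose 1 C/EBP match lay after its start. They are printed 5′ to 3′ on the strand of the gene, with matches in capitals, and lie at chr17:57228087-57228386 (minus strand, C3), chr14:30886226-30886525 (plus strand, Itih4), chr3:19956999-19957298 (plus strand, Cp) and chr2:35061363-35061662 (minus strand, Hc).
C3: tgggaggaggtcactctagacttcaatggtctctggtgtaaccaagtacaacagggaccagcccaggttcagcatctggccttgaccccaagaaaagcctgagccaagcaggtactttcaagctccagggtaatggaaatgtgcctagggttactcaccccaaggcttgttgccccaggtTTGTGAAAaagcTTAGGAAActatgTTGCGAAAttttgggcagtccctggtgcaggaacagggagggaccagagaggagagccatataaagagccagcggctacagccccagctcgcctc
Itih4: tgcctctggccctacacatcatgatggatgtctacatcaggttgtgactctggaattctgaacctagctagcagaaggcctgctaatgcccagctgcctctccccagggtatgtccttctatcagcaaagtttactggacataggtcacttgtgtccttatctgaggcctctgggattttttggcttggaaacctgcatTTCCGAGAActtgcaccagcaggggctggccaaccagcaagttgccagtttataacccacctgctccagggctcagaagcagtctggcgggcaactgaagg
Cp: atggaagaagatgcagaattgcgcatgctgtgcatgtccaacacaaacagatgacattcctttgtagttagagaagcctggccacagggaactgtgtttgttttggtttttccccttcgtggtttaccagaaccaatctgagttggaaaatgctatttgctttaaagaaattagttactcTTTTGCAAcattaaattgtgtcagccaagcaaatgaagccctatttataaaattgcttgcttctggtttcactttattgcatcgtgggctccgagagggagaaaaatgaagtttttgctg
Hc: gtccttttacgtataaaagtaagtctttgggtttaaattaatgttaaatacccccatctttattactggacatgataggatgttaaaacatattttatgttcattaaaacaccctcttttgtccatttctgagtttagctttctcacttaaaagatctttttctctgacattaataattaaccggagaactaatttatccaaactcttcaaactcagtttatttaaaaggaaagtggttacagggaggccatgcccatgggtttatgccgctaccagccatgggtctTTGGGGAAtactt

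In C3 the matches were TTGTGAAA, TTAGGAAA and TTGCGAAA, beginning 70, 58 and 45 bases before the start. Itih4 carried TTCCGAGAA beginning 51 bases before its start, and the second Cp start carried TTTTGCAA beginning 70 bases before it. The Hc match, TTGGGGAA, began 37 bases after the start. Cd55 and the NF-kappaB pattern gave no match in these windows. Among 32851 promoters of the same length, 40.7% held at least 1 C/EBP match, 8.30% a STAT match and 1.25% an NF-kappaB match, so a single C/EBP match is common. No match overlapped another. A match is a description of the letters and says nothing of binding, and the genes with C/EBP matches had unlike patterns across the cell types.

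The 7 genes fell into different patterns. Hc was high in BASCs and AT2 cells and low in club and ciliated cells, and Itih4 was so too except in the 6 BASCs-Tracer AT2 cells, where it was at 22.03 CPM. Cp and C3 had their highest summed levels in Scgb1a1-TD club cells and Hp in both club cell groups, and Cd55 had its highest in ciliated cells and next in club cells. In the BASCs-Tracer line, C3 was at 222.6 CPM in BASCs and 219.9 CPM in club cells. BASCs-Tracer BASCs lay within 2-fold of Sftpc-TD AT2 cells in Hc, Itih4 and C3 and were 2-fold or more above them in Cp, Hp and Cd55. Cfb could not be measured. Per kilobase of exon, the scale on which genes can be compared, Hp was the most abundant member in every group with 6 or more cells except the BASCs-Tracer AT2 cells, where Hc was at 515 CPM per kb and Hp at 503 CPM per kb.

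**Figure D1:**
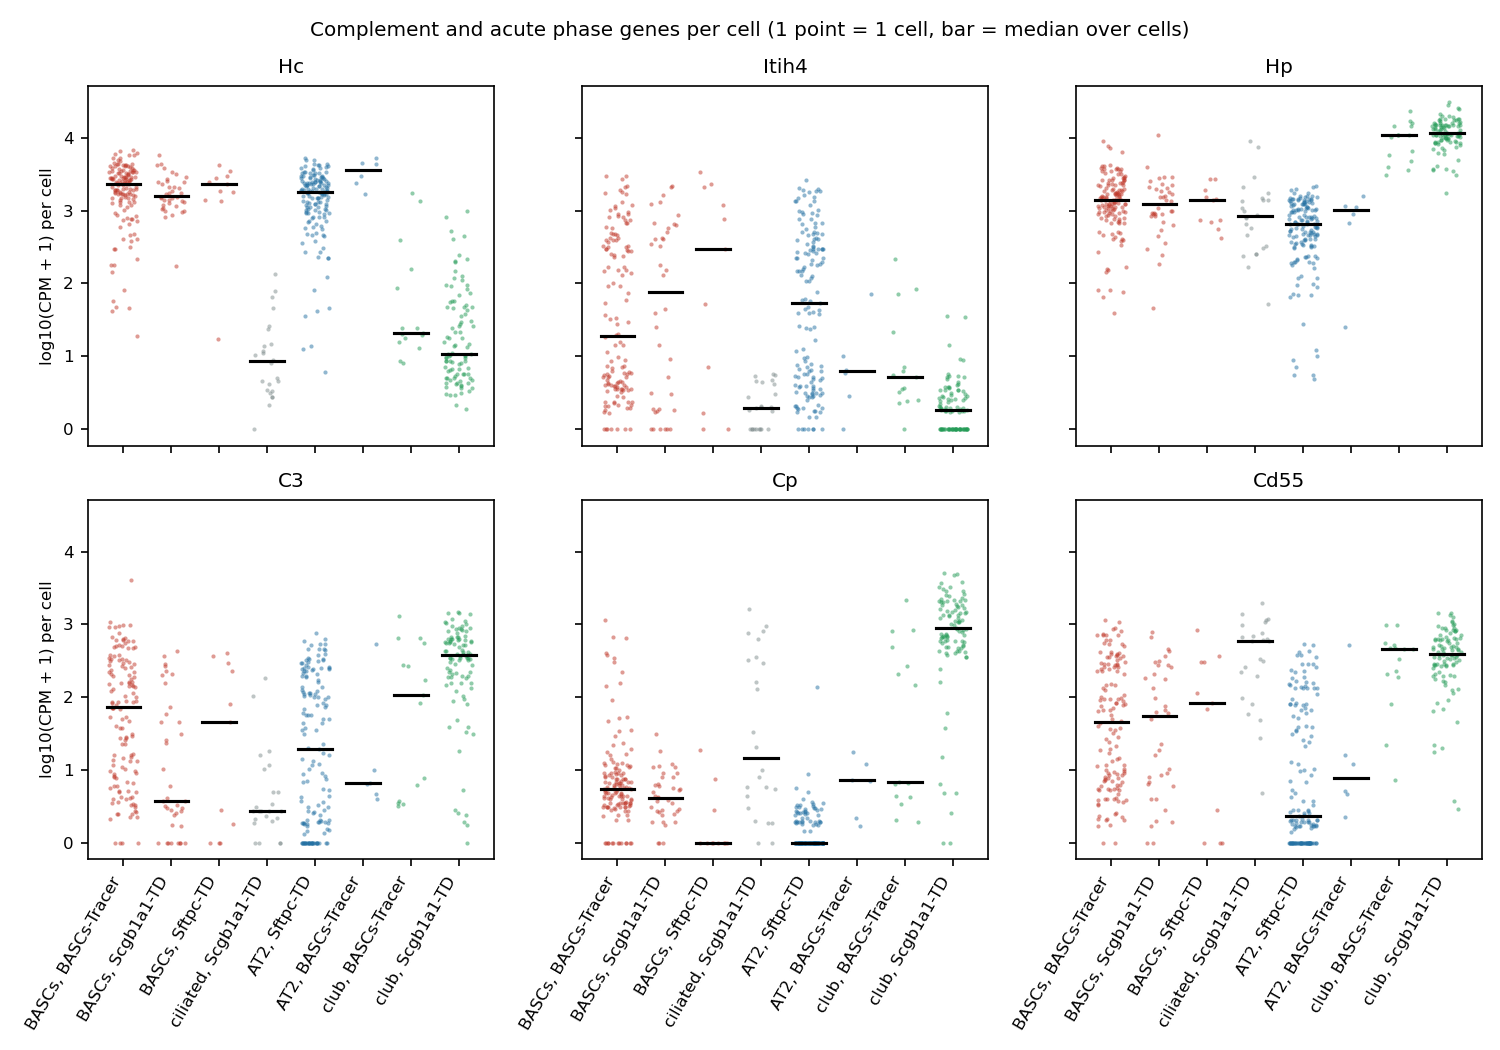
Level of each of 6 members in each cell, as log10(CPM + 1) on the vertical axis, for the 8 groups with 6 or more cells on the horizontal axis; a point is a cell and the bar is the median over cells. Hc forms a compact high band in BASCs and AT2 cells, Hp a compact band near 11480 CPM in Scgb1a1-TD club cells, and Itih4, C3 and Cd55 run from 0 to high levels within BASCs.

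Hc (chr2:34983331-35061438, minus strand, GRCm38) was high in nearly every BASC and AT2 cell and low in most club and ciliated cells. BASCs-Tracer BASCs had 18.1, 2339.9 and 6712 CPM at the lowest, median and highest cell, Scgb1a1-TD BASCs had 174.6, 1606 and 5795 CPM, and Sftpc-TD BASCs had 16.2, 2328 and 4228 CPM. Sftpc-TD AT2 cells spanned 5.04 to 5229 CPM with a median of 1784 CPM, so the BASC and AT2 ranges overlapped almost wholly. Scgb1a1-TD club cells had 0.868, 9.70 and 979 CPM, BASCs-Tracer club cells 7.19, 19.8 and 1763 CPM, and ciliated cells 0, 7.59 and 132.3 CPM. Of the BASCs-Tracer BASCs, 110 cells lay above every club cell of Scgb1a1-TD. Summed over cells, Hc stood at 2299 CPM (2289.6 to 2308) in BASCs-Tracer BASCs, against 35.8 CPM (34.6 to 37.03) in Scgb1a1-TD club cells.

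The log2 ratio was 5.96 between these groups (5.43 to 6.69 over 6 plate pairs), 5.80 for BASCs over club cells within Scgb1a1-TD (5.02 to 6.81 over 9 pairs) and 4.22 within BASCs-Tracer (2.75 to 7.15 over 4 pairs). In that last comparison the BASCs-Tracer club cells summed to 122.5 CPM, and 1 of the 15 cells held more of their Hc reads than all others together. Over AT2 cells the ratio was 0.27 for BASCs-Tracer BASCs (0.11 to 0.36) and 0.44 for Sftpc-TD BASCs (0.16 to 0.29 over 2 plate pairs, which could use only the 7 BASCs of plate 5), both under the 2-fold limit. After each cell was thinned to 100000 reads, which left out 12 shallower cells, 10 or more Hc reads were found in 95.5% of BASCs-Tracer BASCs (95% exact Clopper-Pearson interval, 90.4 to 98.3), 100% of those of Scgb1a1-TD, 95.3% of AT2 cells (90.5 to 98.1), 8.33% of ciliated cells (1.03 to 26.997) and 12.8% of Scgb1a1-TD club cells (6.77 to 21.2). Without thinning, at least 1 Hc read was present in 100% of Scgb1a1-TD club cells, at a median depth of 1.09e+06 reads.

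The low Hc level in airway cells of Scgb1a1-TD moved with the plate. Scgb1a1-TD club cells had a median of 43.9 CPM on plate 2, 5.86 CPM on plate 3 and 9.92 CPM on plate 4. The largest BASC or AT2 group was 53 BASCs-Tracer BASCs on plate 2, 23 Scgb1a1-TD BASCs on plate 3 and 60 Sftpc-TD AT2 cells on plate 4. The median cell had 567752 reads on plate 2 and 1.11e+06 on plates 3 and 4. Over these club cells Hc had a Spearman rho of −0.27 with reads per cell. Ciliated cells had medians of 45.7, 2.44 and 9.77 CPM on the same plates. BASCs-Tracer club cells did not show the higher level on plate 2, with a median of 15.8 CPM there and 23.3 CPM on plate 1. Among the 97 club cells, Hc followed Sftpc, the AT2 surfactant gene, with a Spearman rho of 0.42, a description over cells that share depth and plate. The part of free transcript or of neighbouring wells in these low values was not tested.

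C3 (chr17:57203970-57228136, minus strand), the central component, was spread over all secretory cell types. Its lowest, median and highest cells were at 0, 71.5 and 4058 CPM in BASCs-Tracer BASCs, 0, 2.76 and 429.3 CPM in Scgb1a1-TD BASCs and 0, 45.3 and 401.5 CPM in Sftpc-TD BASCs. Sftpc-TD AT2 cells had 0, 18.6 and 755 CPM, BASCs-Tracer club cells 2.23, 107.2 and 1289 CPM, and Scgb1a1-TD club cells 0, 378.3 and 1502 CPM. Ciliated cells were the lowest group, with a median of 1.78 CPM and 1 of 24 cells past 10 thinned reads. The ranges of BASCs, AT2 and club cells overlapped. The share of cells with 10 thinned reads was 45.1% in BASCs-Tracer BASCs (36.5 to 53.97), 18.9% in Scgb1a1-TD BASCs (7.96 to 35.2), 34.5% in AT2 cells (26.8 to 42.7) and 84.04% in Scgb1a1-TD club cells (75.05 to 90.8). Among the cells that passed, the median was 290 CPM in BASCs-Tracer BASCs, 240 CPM in AT2 cells and 470 CPM in Scgb1a1-TD club cells.

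The summed C3 level was 222.6 CPM in BASCs-Tracer BASCs, against 456.3 CPM in Scgb1a1-TD club cells, a log2 ratio of −1.03 (−1.31 to −0.53 over plate pairs), at the edge of the 2-fold limit. Within Scgb1a1-TD the BASCs were lower than the club cells by a log2 ratio of −2.92 (−7.69 to −1.43), and within BASCs-Tracer the ratio was 0.02 with both signs among plate pairs (−0.52 to 1.51). The level in BASCs-Tracer club cells rested on plate 2, where the median was 330.96 CPM, against 6.74 CPM on plate 1. In Scgb1a1-TD BASCs the 10 cells of plate 4 summed to 1.46 CPM, the 23 cells of plate 3 to 82.7 CPM and the 5 cells of plate 2 to 124.99 CPM. These plate differences lie within a line. On plate 2, which held both lines, C3 summed to 203.8 CPM in BASCs-Tracer BASCs and 124.99 CPM in Scgb1a1-TD BASCs. In club cells of that plate it summed to 292.99 CPM for BASCs-Tracer and 368.3 CPM for Scgb1a1-TD. Line and animal cannot be told apart in the differences between lines, and the part of plate in them was not tested.

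Cfb (chr17:34856374-34862518, minus strand), the serine protease of the alternative pathway convertase, had 14 reads in 6 of the 480 cells. Of these, 13 were in 5 Scgb1a1-TD club cells and 1 was in a BASC of BASCs-Tracer, and the highest cell reached 4.73 CPM. This count cannot be read as a level. In GENCODE M21, 2246 of its 2825 exon bases (79.5%) are shared on the same strand with the read-through gene Gm20547, which had 0 reads in all 480 cells. Whether reads in the shared bases were set aside in counting was not tested. The neighbouring C2 gene, which has 53.1% of its exon bases free of such overlap, had 96 reads in 4 cells. For the other 6 members at least 97.9% of exon bases are free of other genes.

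Cd55 (chr1:130439027-130462744, minus strand), the surface regulator, was highest in airway cells. BASCs had medians of 44.5, 54.7 and 82.6 CPM in the lines BASCs-Tracer, Scgb1a1-TD and Sftpc-TD, lowest cells at 0 and highest cells between 776 and 1161 CPM. The lowest, median and highest ciliated cells were at 3.81, 591 and 1983 CPM. Sftpc-TD AT2 cells had a median of 1.39 CPM and a highest cell of 534 CPM. BASCs-Tracer club cells had 6.24, 456.8 and 993 CPM and Scgb1a1-TD club cells 1.93, 395.8 and 1430.3 CPM at the lowest, median and highest cell, so every group overlapped every other. BASCs-Tracer BASCs summed to 164.7 CPM (162.3 to 167.1), against 52.3 CPM (51.3 to 53.3) in Sftpc-TD AT2 cells, a log2 ratio of 1.64 (0.90 to 2.01 over 4 plate pairs). The BASCs of Sftpc-TD summed to 149.5 CPM, and their log2 ratio over AT2 cells of the same line was 1.498 (1.25 to 1.36 over the usable plate pairs). Those pairs held only the 7 Sftpc-TD BASCs of plate 5. On plate 4 the 4 Sftpc-TD BASCs summed to 180.7 CPM, against 49.6 CPM in AT2 cells.

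Cd55 thus lay between AT2 and club cells in all 3 BASC groups. The share with 10 thinned reads was 38.3% (30.1 to 47.2), 37.8% (22.5 to 55.2) and 36.4% (10.9 to 69.2) in BASCs of the lines BASCs-Tracer, Scgb1a1-TD and Sftpc-TD, 79.2% in ciliated cells (57.8 to 92.9), 20.9% in AT2 cells (14.7 to 28.4) and 90.4% in Scgb1a1-TD club cells (82.6 to 95.5). Over club cells the log2 ratio was −1.48 for BASCs-Tracer BASCs against Scgb1a1-TD club cells (−2.28 to −0.81), −1.63 within Scgb1a1-TD (−3.04 to −0.82) and −1.54 within BASCs-Tracer (−2.33 to −1.06). Ciliated cells were above club cells of their line by 0.45 on the log2 scale, under the 2-fold limit, with both signs among plate pairs (−0.25 to 1.27). Cd55b, a paralog of Cd55, was at 73.01 CPM in ciliated cells and at most 7.18 CPM in the other groups, and reads that fit both paralogs may have been split or dropped.

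**Figure D2:**
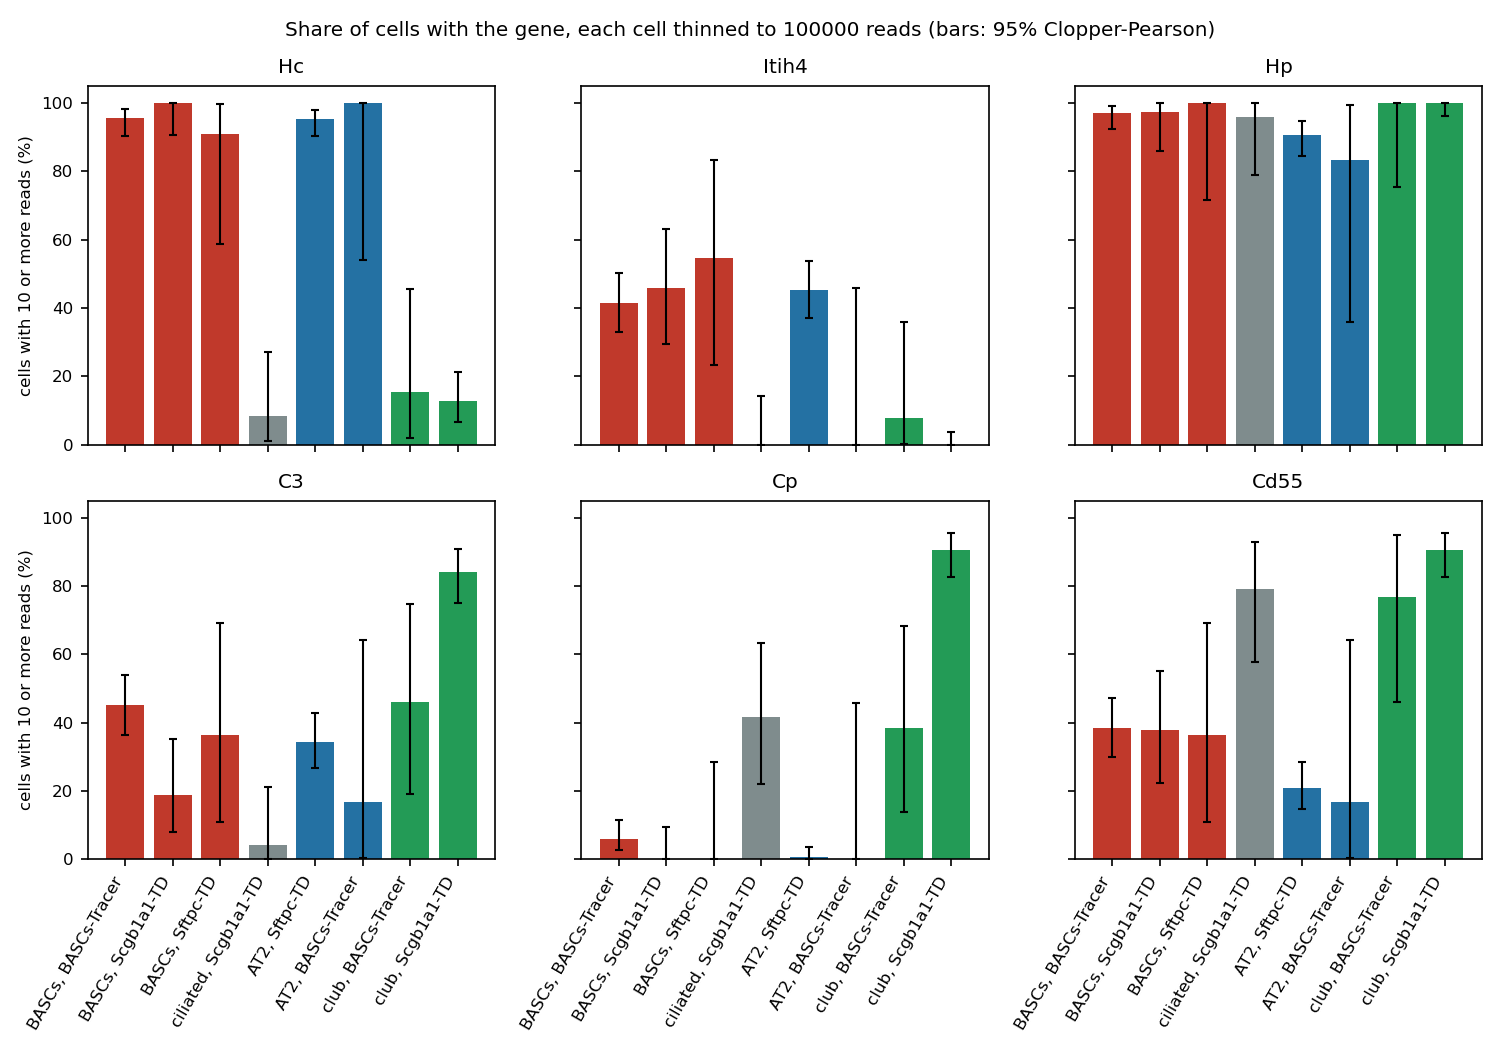
Share of cells with 10 or more reads of each of 6 members, in percent on the vertical axis, after every cell was thinned to 100000 reads, for the 8 groups with 6 or more cells; error bars are 95% exact Clopper-Pearson intervals, which cover counting error only. Hc is found in over 90% of BASCs and AT2 cells and Hp in over 80% of every group, whereas Cp is found in 90.4% of Scgb1a1-TD club cells and 6.02% of BASCs-Tracer BASCs.

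Itih4 (chr14:30886476-30902353, plus strand) shared the alveolar pattern of Hc but was found in fewer cells. The lowest, median and highest cells were at 0, 17.8 and 2981 CPM in BASCs-Tracer BASCs, 0, 86.2 and 2184 CPM in Scgb1a1-TD BASCs and 0, 291.5 and 3430.0 CPM in Sftpc-TD BASCs. Sftpc-TD AT2 cells had 0, 52.9 and 2633 CPM. Scgb1a1-TD club cells ranged from 0 to 34.98 CPM with a median of 0.819 CPM, and ciliated cells from 0 to 4.64 CPM. Itih4 passed 10 thinned reads in 41.4% (32.9 to 50.2), 45.9% (29.5 to 63.1) and 54.5% (23.4 to 83.3) of BASCs of the lines BASCs-Tracer, Scgb1a1-TD and Sftpc-TD and in 45.3% of Sftpc-TD AT2 cells (37.1 to 53.7). In Scgb1a1-TD club cells it passed in 0 of 94 cells, which allows a share of up to 3.19% (here and below taken as 3 cells of the total; the Clopper-Pearson limit is 3.85%), and in ciliated cells in 0 of 24, which allows up to 12.5%. The Itih4 reads were concentrated, since 12 BASCs-Tracer BASCs held more of them than all other BASCs of that line, and 9 Sftpc-TD AT2 cells more than all its other AT2 cells.

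Summed over cells, Itih4 was at 304.5 CPM in BASCs-Tracer BASCs, 393.1 CPM in Scgb1a1-TD BASCs, 1208 CPM in Sftpc-TD BASCs, 408.8 CPM in Sftpc-TD AT2 cells and 1.68 CPM in Scgb1a1-TD club cells. The log2 ratio of BASCs over club cells was 6.83 for BASCs-Tracer against Scgb1a1-TD (5.94 to 7.19) and 7.20 within Scgb1a1-TD (6.31 to 7.57), and both depend on the 1 CPM that was added, since the club level was itself near 1 CPM. Within BASCs-Tracer it was 4.18 (2.60 to 6.74). The higher level in Sftpc-TD BASCs, a log2 ratio of 1.56 over AT2 cells, rested on few cells: 1 of the 11 held more reads than the other 10 together. The 6 BASCs-Tracer AT2 cells had 0 to 69.99 CPM and summed to 22.03 CPM, and 0 of 6 passed 10 thinned reads. With 1 sample in each line, the difference from Sftpc-TD AT2 cells was not tested.

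Cp (chr3:19957054-20009145, plus strand) was low in most BASCs and AT2 cells and high in most Scgb1a1-TD club cells. BASCs had medians of 4.56, 3.20 and 0 CPM and highest cells of 1137, 30.8 and 17.9 CPM in the lines BASCs-Tracer, Scgb1a1-TD and Sftpc-TD. In BASCs-Tracer 8 BASCs passed 10 thinned reads (6.02%, 2.63 to 11.5), against 0 of 37 in Scgb1a1-TD, which allows up to 8.11%, and 0 of 11 in Sftpc-TD, which allows up to 27.3%. Sftpc-TD AT2 cells had a median of 0 CPM and a highest cell of 139.3 CPM, and 0.676% passed. Scgb1a1-TD club cells had 0, 882 and 5148 CPM at the lowest, median and highest cell, and 90.4% of them passed (82.6 to 95.5). The summed level of 29.5 CPM in BASCs-Tracer BASCs rested on few cells, 4 of which held more reads than all the others.

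Against Sftpc-TD AT2 cells, at 0.879 CPM, the log2 ratio of Cp in BASCs-Tracer BASCs was 4.02 (3.02 to 4.41), and against Scgb1a1-TD club cells, at 1358 CPM, it was −5.48 (−6.55 to −5.08). Within Scgb1a1-TD the BASCs were lower than the club cells by a log2 ratio of −8.15 (−9.15 to −7.33). The BASCs-Tracer club cells were lower in Cp than those of Scgb1a1-TD, at 216.3 CPM summed and a median of 5.93 CPM, with 38.5% of cells past 10 thinned reads (13.9 to 68.4) and a log2 ratio of −2.65 (−3.26 to −2.41). The club marker Scgb3a2 moved with it, at 11010 CPM in BASCs-Tracer club cells and 22567 CPM in those of Scgb1a1-TD. In ciliated cells Cp had medians of 161.2, 128.4 and 0.971 CPM on plates 2, 3 and 4, and 3 of 24 cells held more of its reads than the others together. The club list in single ciliated cells ran from 1483 to 252125 CPM, and its part in their Cp was not tested.

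Hp (chr8:109575128-109579172, minus strand) was found in every one of the 480 cells. BASCs had medians of 1397, 1229 and 1380.4 CPM in the lines BASCs-Tracer, Scgb1a1-TD and Sftpc-TD, with lowest cells of 37.8, 45.4 and 421.6 CPM and highest cells of 8958, 10999.5 and 2722 CPM. Ciliated cells spanned 51.3 to 9104 CPM with a median of 835 CPM, and Sftpc-TD AT2 cells had 3.90, 649 and 2178 CPM at the lowest, median and highest cell. Club cells lay above most of these, with 3069.8, 10721 and 22879 CPM in BASCs-Tracer and 1753, 11479.5 and 30554 CPM in Scgb1a1-TD. Of the BASCs-Tracer BASCs, 87 lay below every club cell of Scgb1a1-TD and 39 lay above every AT2 cell of Sftpc-TD.

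Across lines and plates, the position of Hp in BASCs relative to club cells varied little. BASCs-Tracer BASCs were lower than Scgb1a1-TD club cells by a log2 ratio of −2.85 (−3.24 to −2.40), BASCs within Scgb1a1-TD by −2.96 (−3.14 to −2.50) and BASCs within BASCs-Tracer by −2.84 (−3.24 to −2.46). Over AT2 cells the ratio was 1.25 for BASCs-Tracer BASCs (0.92 to 1.46) and 0.86 for the 11 Sftpc-TD BASCs (1.19 to 1.26 over the usable plate pairs). Those pairs held only the 7 Sftpc-TD BASCs of plate 5. On plate 4 the 4 Sftpc-TD BASCs summed to 785.6 CPM, against 704.9 CPM in AT2 cells. Within BASCs, Hp followed the club gene Scgb1a1, with a Spearman rho of 0.52 over the cells of BASCs-Tracer and 0.48 over the 38 of Scgb1a1-TD, and within Sftpc-TD AT2 cells rho was 0.12. These correlations are descriptions over cells that share plates. Whether transcript from club cells reached these wells was not tested.

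Within single cells, Hc exceeded Hp in most BASCs and AT2 cells and in no club or ciliated cell. On the CPM scale it did so in 92 BASCs-Tracer BASCs (66.7% of them, 58.1 to 74.5), 25 of 38 Scgb1a1-TD BASCs (65.8%), 8 of 11 Sftpc-TD BASCs, 79.9% of Sftpc-TD AT2 cells (72.5 to 85.98) and 6 of 6 BASCs-Tracer AT2 cells. The count was 0 of 24 ciliated cells, 0 of 15 BASCs-Tracer club cells and 0 of 97 Scgb1a1-TD club cells. The median log2 ratio of Hc to Hp in CPM was 0.72, 0.57 and 0.61 in BASCs of the lines BASCs-Tracer, Scgb1a1-TD and Sftpc-TD. It was 1.42 in Sftpc-TD AT2 cells and −9.73 in Scgb1a1-TD club cells. Both genes together passed 10 thinned reads in 92.5% of BASCs-Tracer BASCs, 87.8% of Sftpc-TD AT2 cells and 12.8% of Scgb1a1-TD club cells.

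**Figure D3:**
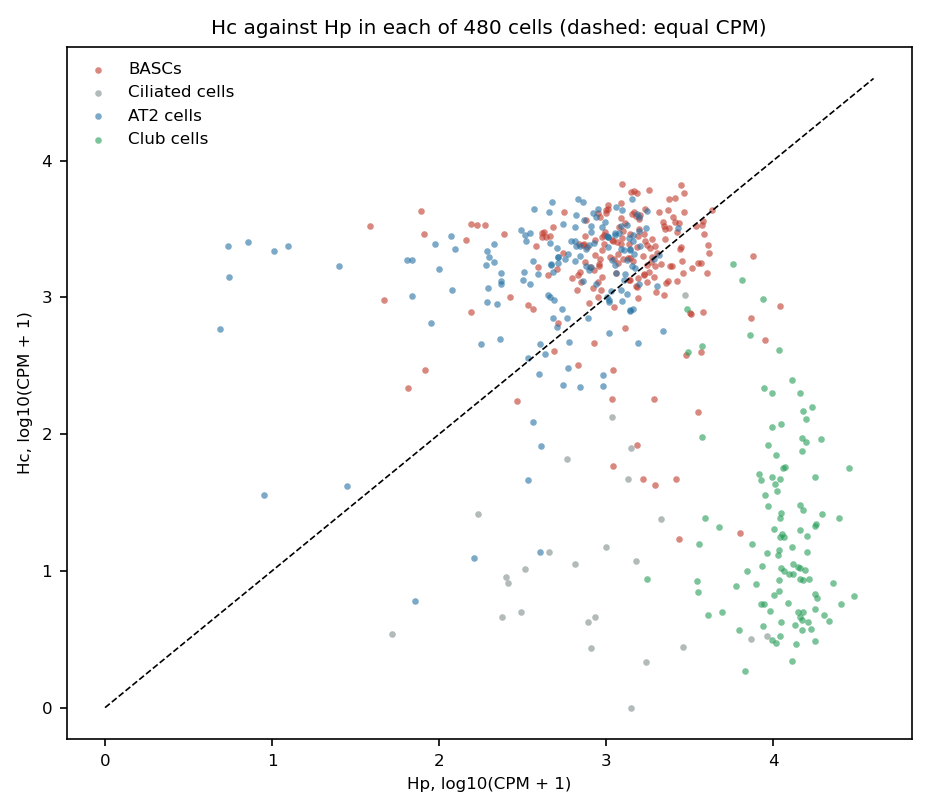
Hc on the vertical axis against Hp on the horizontal axis, both as log10(CPM + 1), 1 point for each of the 480 cells, coloured by labelled sub-type over all lines; the dashed line marks equal CPM. BASCs and AT2 cells lie on both sides of the line and mostly above it, and all cells labelled club lie below it.

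Counted together, between 1 and 5 of the 7 members passed 10 thinned reads in a BASC of BASCs-Tracer, with a mean of 3.23, and the means were 3.0 in Scgb1a1-TD BASCs and 3.18 in Sftpc-TD BASCs. Ciliated cells averaged 2.29 members, Sftpc-TD AT2 cells 2.87, BASCs-Tracer club cells 2.85 and Scgb1a1-TD club cells 3.78. Exactly 4 members passed in 64.9% of Scgb1a1-TD club cells and in 30.8% of BASCs-Tracer BASCs. Before thinning, the median cell had 4993 genes with a read in BASCs-Tracer BASCs and 4645 in Sftpc-TD AT2 cells. In Scgb1a1-TD it had 5307 in club cells and 5724 in ciliated cells. The share of all genes past 10 thinned reads was not measured, so counts per cell, here and below, describe the members only.

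Across all genes that reached 5 CPM in either group, the member counts read as follows. For BASCs-Tracer BASCs over Scgb1a1-TD club cells, 2 of 6 measured members were 2-fold or more higher, against 18.5% of 10788 genes, and 4 were lower, against 15.2%. For BASCs over club cells within Scgb1a1-TD, 2 of 6 were higher, against 17.2% of 10631 genes, and 4 were lower, against 24.7%. Within BASCs-Tracer 2 of 6 were higher, against 31.8% of 10613 genes, and 3 were lower, against 21%. Sftpc-TD AT2 cells over Scgb1a1-TD club cells had the same split as the first comparison, 2 of 6 higher against 19.5% of 10794 genes and 4 lower against 15.8%, and these comparisons share their club cells.

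In those 4 comparisons no member or 1 member stayed within 2-fold, and the direction of each called member was that already given, Hc and Itih4 higher and the club-enriched genes lower. For BASCs-Tracer BASCs over Sftpc-TD AT2 cells, 3 of 6 members were higher (Cp, Hp and Cd55), against 9.9% of 10507 genes, and 0 were lower, against 9.17%. For BASCs over AT2 cells within Sftpc-TD, 2 of 5 were higher (Itih4 and Cd55), against 16.6% of 10488 genes, and 0 were lower, against 35.4%. These comparisons share their AT2 cells. Against the 6 AT2 cells of their own line, in a comparison chosen after seeing the data, BASCs-Tracer BASCs had log2 ratios of −0.49 for Hc, 1.27 for C3, 3.73 for Itih4, 2.21 for Cp, 1.11 for Hp and 0.86 for Cd55. Cd55 was then under 2-fold, and C3 and Itih4 were past it. Among those 6 cells, 1 was at 527.7 CPM of Cd55 and 540.1 CPM of C3. That cell held more reads of each gene than the others together. Ciliated over club cells within Scgb1a1-TD gave 0 of 5 higher, against 43% of 12011 genes, and 4 lower (Hc, C3, Cp and Hp), against 14.9%.

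**Figure D4:**
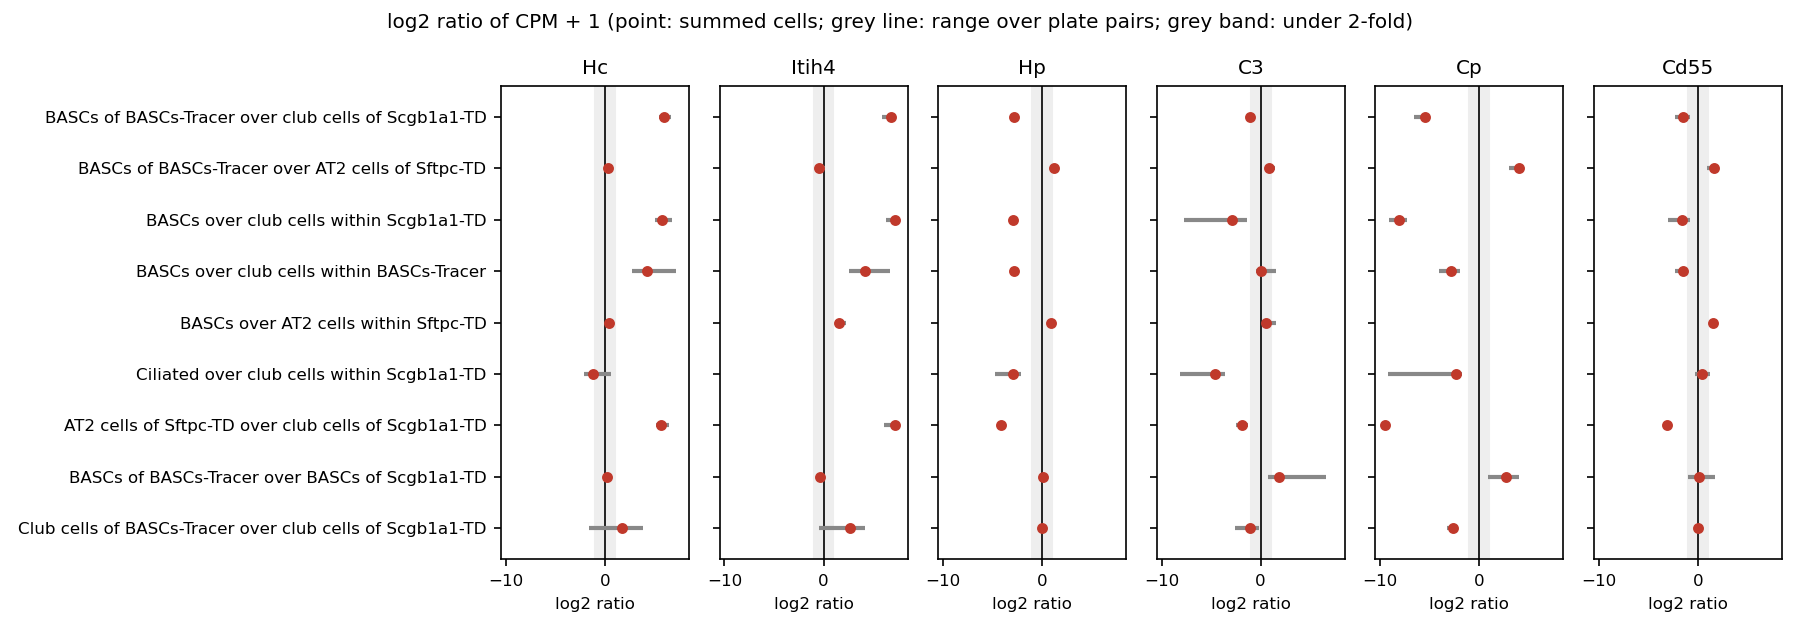
The log2 ratio of CPM + 1 on the horizontal axis for 6 members in the 9 comparisons listed down the side, first group over second; points are summed cells, grey lines the range over plate pairs with 5 or more cells of each group, the grey band marks ratios under 2-fold, and ratios with both groups under 5 CPM are left out. Hc and Itih4 lie to the right in every comparison of BASCs or AT2 cells with club cells, and Hp, Cp and Cd55 lie to the left.

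The same sub-type in different lines was not always alike. BASCs-Tracer BASCs and Scgb1a1-TD BASCs lay within 2-fold of each other in Hc (log2 ratio 0.17), Itih4 (−0.37), Hp (0.11) and Cd55 (0.16). They differed in C3 (1.88, 0.70 to 6.58 over plate pairs) and Cp (2.67, 0.88 to 3.96), so 2 of 6 members were higher, against 21.1% of 10447 genes, and 0 were lower, against 10.2%. On plate 2, the only plate with both, no member was 2-fold higher. BASCs-Tracer club cells and Scgb1a1-TD club cells lay close in Hp (−0.02) and Cd55 (0.06). Hc (1.75) and Itih4 (2.66) were higher in BASCs-Tracer club cells and C3 (−1.05) and Cp (−2.65) lower, 2 of 6 against 21.1% of 10475 genes and 2 of 6 against 29.1%. The Hc difference had the opposite sign without plate 1 (−1.15), where the club cell with 1763 CPM was sorted. The AT2 list moved with it, at 50871 CPM in BASCs-Tracer club cells and 31474 CPM in those of Scgb1a1-TD, and its part was not tested.

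Within a cell type the 6 measured members did not move together. Over all 15 pairs of members the median Spearman rho was 0.03 in BASCs-Tracer BASCs, −0.03 in 38 Scgb1a1-TD BASCs, 0.07 in AT2 cells and −0.0003 in 97 Scgb1a1-TD club cells. The highest pair was Hc with Itih4 in BASCs-Tracer BASCs (0.34) and in AT2 cells (0.27), but in Scgb1a1-TD BASCs that pair had −0.22. C3 with Cp was the highest pair in Scgb1a1-TD club cells (0.29, and 0.34 on thinned counts). In Scgb1a1-TD BASCs the same pair had 0.32, but 0.15 on thinned counts, 0.11 on plate 3 and −0.78 on the 10 cells of plate 4, and Cp followed reads per cell there with a rho of −0.55. These are weak correlations in sparse counts and describe cells that share depth and plate.

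Over all cells but the 12 shallowest, of all types together, the genes most like Hc were Scd1, a fatty acid desaturase (Spearman rho 0.68), the lysozyme gene Lyz2 (0.65) and Rnase4 (0.65). Itih4 was most like Lcn2, the acute phase protein lipocalin 2 (0.58), and the alarmin Il33 (0.57). Cp was most like Scgb3a2 (0.83), Aldh1a1 (0.80) and Cyp2f2 (0.75), and Hp most like Scgb1a1 (0.77), Cyp2f2 (0.71) and Cldn10 (0.65), all from the club list. Cd55 was most like Cyp2f2 (0.61) and C3 most like Pigr, the receptor that carries antibody across epithelium (0.41). Within the Sftpc-TD AT2 cells the likenesses were lower. Npc2, a cholesterol carrier, and the acute phase gene Lrg1 were among the 3 most alike for both Hc (0.37 and 0.37) and Hp (0.38 and 0.35), Lcn2 was again among those of Itih4 (0.34), and Scgb3a2 (0.55) and Aldh1a1 (0.48) again led for Cp.

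The other genes of the cascade were mostly under 5 CPM in these cells. Of all 53379 genes, 10788 reached 5 CPM in BASCs-Tracer BASCs or Scgb1a1-TD club cells, and 12011 in ciliated or club cells of Scgb1a1-TD. The share of all genes over every group of 10 or more cells was not measured. The list counts here and below therefore describe the lists only. Of 16 classical and lectin pathway genes, 3 reached 5 CPM in a group of 10 or more cells, Mbl1 (at most 19.99 CPM), C1ra (15.3 CPM) and Colec12 (9.94 CPM), and C4a came next at 2.91 CPM. Of 8 alternative pathway and terminal genes, C6, the component that follows C5 in the lytic complex, stood out. It was at 417.5 CPM in BASCs-Tracer BASCs, 306.9 CPM in Scgb1a1-TD BASCs, 293.6 CPM in Sftpc-TD BASCs, 35.4 CPM in ciliated cells, 399.9 CPM in Sftpc-TD AT2 cells, 67.2 CPM in BASCs-Tracer club cells and 257.8 CPM in Scgb1a1-TD club cells. C8g reached 12.1 CPM in ciliated cells, and Cfp and C7 stayed under 5 CPM. C6 did not follow Hc into the low levels of Scgb1a1-TD club cells, and its log2 ratio of BASCs-Tracer BASCs over those cells was 0.69.

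Regulators were more widely present, 11 of 14 reaching 5 CPM. Clu, the secreted inhibitor clusterin, was at 173.2 CPM in BASCs-Tracer BASCs, 26.3 CPM in ciliated cells, 171.6 CPM in Sftpc-TD AT2 cells and 252.7 CPM in Scgb1a1-TD club cells. Cr1l, a rodent surface regulator with a role like that of Cd55, lay between 49.2 and 91.98 CPM in every group of 10 or more cells. Cd59a, which blocks the lytic complex, reached 39.2 CPM in ciliated cells and at most 10.2 CPM elsewhere. In BASCs-Tracer BASCs over Scgb1a1-TD club cells, 1 of 7 measured regulators was 2-fold higher and 1 lower, with a median log2 ratio of −0.54. Over all 10788 genes tested, 18.5% were higher and 15.2% lower, with a median of 0.06. Of the 7 receptors, Itgb2, Itgax, C5ar1 and Itgam reached 5 CPM, in Sftpc-TD BASCs or BASCs-Tracer BASCs. The leukocyte marker Ptprc moved with them, at 12.5 CPM in BASCs-Tracer BASCs and 91.01 CPM in Sftpc-TD BASCs, where 1 of 11 cells held 612 CPM of Itgb2. Their part in the receptor values was not tested.

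Among 39 acute phase protein genes 18 reached 5 CPM. Lcn2, which binds bacterial siderophores, took the alveolar pattern, with 781 CPM in BASCs-Tracer BASCs, 508 CPM in Scgb1a1-TD BASCs, 908 CPM in Sftpc-TD BASCs, 2.04 CPM in ciliated cells, 420.7 CPM in Sftpc-TD AT2 cells and 30.997 CPM in Scgb1a1-TD club cells. Mt1, a metallothionein, was highest in ciliated cells (395.5 CPM), and Cd14, a co-receptor for lipopolysaccharide, in Scgb1a1-TD club cells (236.1 CPM). Rbp4, the retinol carrier, was at 60.3 CPM in BASCs-Tracer BASCs, 206.8 CPM in BASCs-Tracer club cells and 161.5 CPM in Scgb1a1-TD club cells. In BASCs-Tracer BASCs over Scgb1a1-TD club cells, 5 of 13 measured genes were 2-fold or more higher and 6 lower, with a median log2 ratio of −0.86. Over all 10788 genes tested, 18.5% were higher and 15.2% lower, with a median of 0.06. The relatives of Itih4, named here after their values were seen, were far lower: Itih1, Itih2, Itih3 and Itih5 reached at most 15.8, 30.3, 16.8 and 29.4 CPM, and Itih2 and Itih5 were highest in Scgb1a1-TD club cells. The hepatocyte list summed to at most 10.1 CPM in any group, with Alb at or under 7.94 CPM.

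All 23 signalling genes reached 5 CPM. Nfkbia, the inhibitor that NF-kappaB itself induces, was ordered by line more than by cell type. In the BASCs-Tracer line it was at 1471, 1710.2 and 1736 CPM in BASCs, AT2 cells and club cells. The Scgb1a1-TD line had 502, 257.5 and 363.5 CPM in BASCs, ciliated cells and club cells, and the Sftpc-TD line 1047 and 1002 CPM in BASCs and AT2 cells. Nfkbiz, its nuclear relative, was at 251.2, 268.7 and 281.7 CPM in the same groups of BASCs-Tracer and at 97.9, 39.5 and 35 CPM in those of Scgb1a1-TD. Stat3, the transducer of interleukin-6 signals, lay between 115.1 and 352.3 CPM and Nfe2l2, which drives antioxidant genes, between 230.2 and 485 CPM in groups of 10 or more cells. In club cells the log2 ratios of BASCs-Tracer over Scgb1a1-TD were 1.75 for Hc, 2.66 for Itih4, −1.05 for C3 and −2.65 for Cp. For Hp and Cd55 they were −0.02 and 0.06. Line and animal cannot be told apart here, and a link between the members and Nfkbia was not tested.

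**Figure D5:**
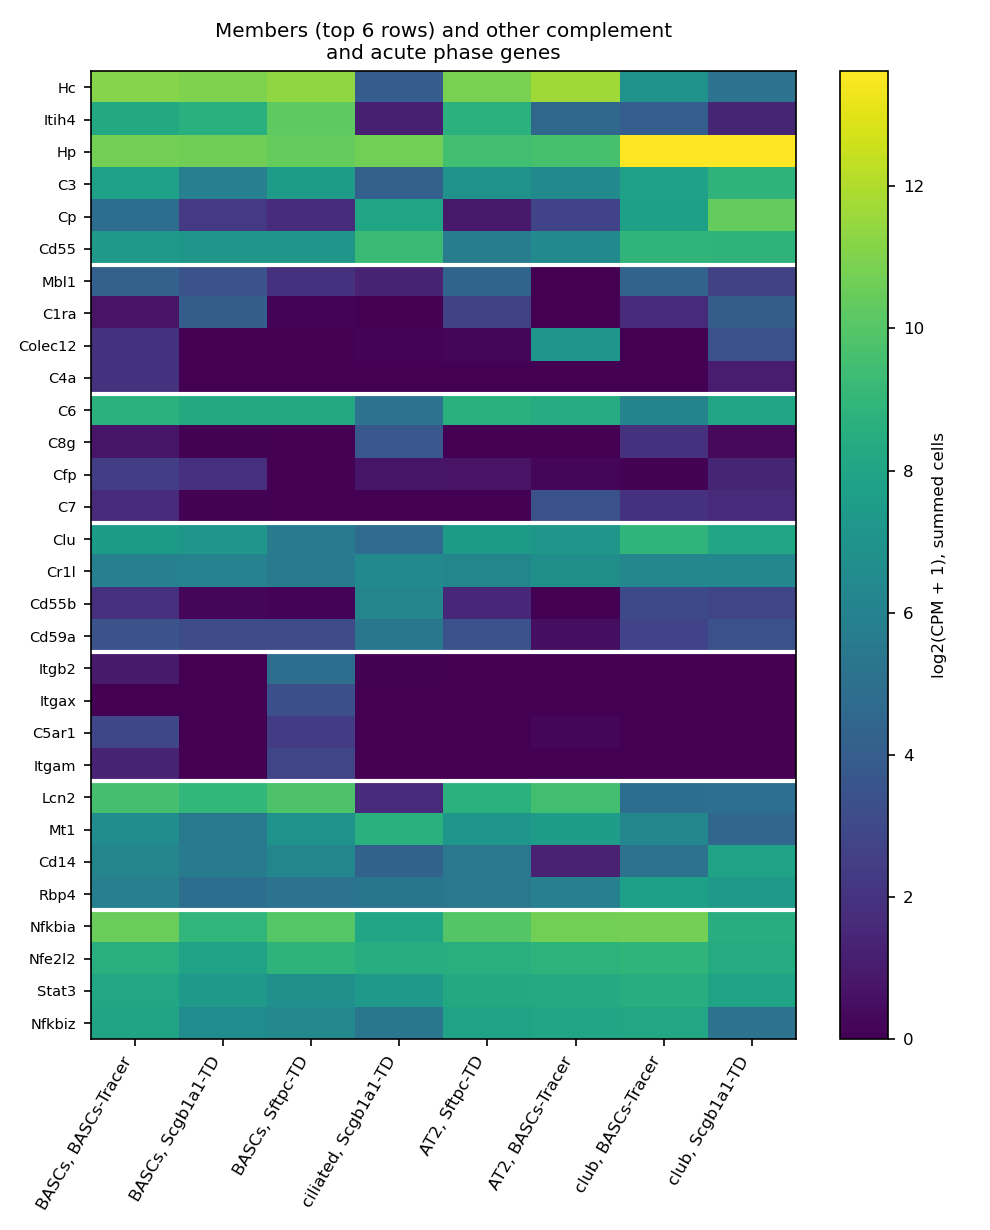
Heat map of summed levels, log2(CPM + 1) by colour, for 6 members (top) and the 4 highest genes of each of 6 lists (below, separated by white lines: classical and lectin pathway, alternative and terminal, regulators, receptors, acute phase proteins, signalling), across the 8 groups with 6 or more cells. Lcn2 and C6 are high in the BASC and AT2 columns like Hc, with C6 at 257.8 CPM also in Scgb1a1-TD club cells, and Nfkbia is brightest in the 3 columns of BASCs-Tracer.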

How the data were processed

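Lung cells were dissociated enzymatically, sorted singly into lysis buffer, and amplified as full-length cDNA for Nextera XT libraries, per the labels' protocols. HISAT2, HTSeq and GRCm38 are the aligner, counter and build in the submitters' processing notes, with version and counting mode not given in the sources used here. Raw read counts for 53379 genes in 480 cells were deposited by the authors as 1 table, and 0 value columns went unmatched. PCR reads are not independent molecules, so intervals cover counting error only. GENCODE M21 gave symbols for 53274 identifiers and the exon lengths. With Python 3.11.15, pandas 2.3.3 and scipy 1.17.1, counts were summed per line and labelled sub-type and scaled to CPM, and ratios were taken on log2(CPM + 1) for genes with 5 CPM in either group. The calling step was checked on simulated data for BASCs-Tracer BASCs over Scgb1a1-TD club cells. Of 9542 genes, 200 were changed, 200 of these were recovered and 0 unchanged genes were called. That check does not measure the spread between animals or plates. No test between groups was run, since no animal is named. Single cells far from the rest were looked for in the 6 BASCs-Tracer AT2 cells by Dixon's criterion. No doublet caller was used. Named genes were the 4 highest of each list and the 3 most like each member by Spearman's rho. Members and lists were chosen with earlier results of these data known. The setting without leukocyte-marker cells and the one with BASCs-Tracer AT2 cells were chosen after seeing the data.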

Additional observations from a re-analysis of the deposited data

Results flagged for a closer look

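The 6 BASCs-Tracer AT2 cells, the only group of 4 to 10 cells, were tested for a cell far from the rest in 6 members, and 3 members had one by Dixon's 95% critical value. Chance passes that value in about 1 of 20 groups of normally distributed values, and its rate in sparse single-cell values was not measured; among Sftpc-TD AT2 cells these genes also ran from 0 to 755 CPM for C3, 2633 CPM for Itih4 and 534 CPM for Cd55. The highest cell had 540 CPM of C3, against 3.07 to 8.98 CPM in the other cells, and the same cell had 528 CPM of Cd55, against 1.28 to 15.1 CPM. That cell also had the highest Scgb1a1 level of the group, 14599 CPM. For Itih4 a different cell, on plate 2, had 69.99 CPM, and the others ran from 0 to 8.98 CPM; it had the lowest Hc (1705 CPM) and Hp (24.3 CPM) of the group. These cells are not replicates, and their number limits what the values can show.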

How the results depend on the processing

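No paired test was run, because no test between groups was run. Ratios restricted to plates that held both groups are among the settings below. Of 562 log2 ratios of members recomputed under other settings, 504 moved by less than 1.5 times, 56 moved further and 2 reversed. Both reversals were of Hc in BASCs-Tracer club cells over Scgb1a1-TD club cells, which was −1.15 without plate 1 and −1.61 on plate 2 alone. The settings that changed the plates moved more ratios than the scalings did. With only plates that held both groups, 8 of 23 moved and 1 reversed. Without plate 1, 10 of 29 moved and 1 reversed. Median-of-ratios scaling moved no ratio by 1.5 times, and totals without mitochondrial and top genes moved 5 of 52, no sign changing; these scalings moved the median of all genes by −0.66 to 0.34. Without the cells that had 50 CPM of pan-leukocyte markers, 2 of 52 moved. At 4-fold in place of 2-fold, BASCs-Tracer BASCs over Scgb1a1-TD club cells kept 2 of 4 lower members, and over AT2 cells 1 of 3 higher members. BASCs over AT2 cells within Sftpc-TD had 0 of 2 at 4-fold, and BASCs and club cells between lines each had 1 higher, club cells also 1 lower. Without plate 1, BASCs-Tracer BASCs over AT2 cells had 1 higher member. Between lines, 0 were higher on plate 2 alone for BASCs, and for club cells both there and without plate 1. Club cells between lines had 1 lower with the mean over cells or without plate 3. The shares of all genes called under these settings are not given, so these counts describe the members only. With the BASCs-Tracer AT2 cells in place of those of Sftpc-TD, 4 of 6 ratios of BASCs-Tracer BASCs moved. They became −0.49 for Hc, 3.73 for Itih4, 2.21 for Cp and 0.86 for Cd55. Cd55 was then no longer 2-fold higher, while Itih4 and C3 (1.27) were. In that reference 1 of the 6 cells held more Cd55 and C3 reads than the others together, so both ratios rest on it.

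At 100 thinned reads the mean number of members per cell was 1.64, 1.54 and 1.82 in BASCs of the lines BASCs-Tracer, Scgb1a1-TD and Sftpc-TD, 0.708 in ciliated cells, 1.14 in Sftpc-TD AT2 cells, 1.33 in BASCs-Tracer AT2 cells, 1.38 in BASCs-Tracer club cells and 1.65 in Scgb1a1-TD club cells. At 1 read without thinning it was 5.82 in BASCs-Tracer BASCs, 5.5 in Scgb1a1-TD BASCs, 5.33 in ciliated cells, 4.78 in Sftpc-TD AT2 cells, 5.83 in BASCs-Tracer AT2 cells and 5.93 in BASCs-Tracer club cells, and at 1 thinned read 3.58 in ciliated cells and 3.33 in BASCs-Tracer AT2 cells. Medians over cells gave other levels per kilobase than sums did: in Sftpc-TD AT2 cells 3.61 CPM per kb for C3, 14.3 for Itih4, 0 for Cp and 0.286 for Cd55, and in Scgb1a1-TD club cells 1.55 for Hc, 0.222 for Itih4 and 92.2 for Cp. The cause of these changes was not tested.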

Other observations

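A pair of labelled cells stood alone in their group and entered no comparison. The AT2 cell of Scgb1a1-TD had 3217 CPM of Hc, 2696 CPM of Hp and 192898 CPM of Sftpc, with 0 reads of C3. The cell of BASCs-Tracer labelled ciliated had 1031 CPM of Hc, 2976 CPM of Hp, 350.97 CPM of Cd55, 72979 CPM of Scgb1a1 and 95578 CPM of Sftpc, with 0 reads of Foxj1.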
